A study of Homo sapiens with 32 samples.

Results

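Butyrate reaches the epithelial cell through a small set of membrane proteins and acts inside it on histone deacetylases, and the RNA levels of 10 genes of this route were followed in Caco-2 cells, a human colon adenocarcinoma line that grows as an epithelium. The 10 genes were taken by symbol: the transporters SLC16A1 and SLC5A8, the transporter partner BSG, the efflux pump ABCG2, the receptors FFAR2, FFAR3 and HCAR2, and the deacetylases HDAC1, HDAC2 and HDAC3. They are 10 of 60107 gene rows, of which 30677 held a count in any library. Only 6 of the 10 (SLC16A1, BSG, ABCG2, HDAC1, HDAC2 and HDAC3) passed the filter on low counts and were tested, and the other 4 are given by their counts.

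The study grew the cells beside anaerobic gut bacteria in the HoxBan tube, in which the cells on a coverslip face bacterial agar while oxygen enters from the other side, and asked how the hypoxia factor HIF1 takes part in the response. HIF1A-null cells (cl.21, inducible Cas9 with a HIF1A guide, a single clone), e.v. cells (the same Cas9 with an empty vector) and WT cells were each kept for 18 h in HoxBan coculture with Faecalibacterium prausnitzii, a butyrate producer, or in HoxBan monoculture without bacteria, or were grown in 2D dishes. Each of the 9 groups had 3 libraries, except WT in 2D with 4. Single WT libraries came from coculture with stool and from monoculture, each with inulin or with mucin in the medium.

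Butyrate is made by bacteria that ferment fibre and is a main fuel of colonocytes. It enters with a proton through MCT1 (the product of SLC16A1, which needs basigin, the product of BSG, to reach the membrane) or with sodium through SMCT1 (SLC5A8), it can be sensed outside the cell by the receptors GPR43 (FFAR2), GPR41 (FFAR3) and GPR109A (HCAR2), and in the nucleus it inhibits zinc-dependent deacetylases such as HDAC1, HDAC2 and HDAC3. Levels below are CPM, counts per 1000000 counts after TMM scaling over all 32 libraries. The libraries hold 3′ ends of transcripts, so CPM of different genes count transcript ends and were not divided by gene length.

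The libraries held 4144373 to 6686797 counts. All 7 epithelial markers were present (means of 120.5 to 1443 CPM), whereas the immune, goblet, fibroblast and endothelial markers PTPRC, CD3E, MUC2, SPDEF, COL1A2, VWF and CDH5 had means under 1 CPM, and other markers of these types had means of up to 32.2 CPM (PDGFRA). Mitochondrially encoded genes took a larger share of counts in HoxBan than in 2D, with group means of 15.0 to 16.3% in coculture, 11.1 to 15.2% in monoculture and 7.60 to 9.47% in 2D. HIF1A RNA in 2D ranged from 84.9 to 90.3 CPM in HIF1A-null cells, against 147.1 to 180.4 CPM in e.v. cells. WT dishes ranged from 128.7 to 166.7 CPM. In coculture it ranged from 136.5 to 210.1 CPM in HIF1A-null cells, against 242.1 to 309.4 CPM in e.v. cells and 160.0 to 206.0 CPM in WT cells, so that the WT values lay within the HIF1A-null range. In monoculture the ranges of the 3 lines overlapped. The 3′ reads lie downstream of the guide site, so they do not show whether HIF1A protein was lost. Whether libraries of 1 group came from separate cultures was not stated in the labels, so p-values measure the spread between these libraries, which may be technical. In these bulk samples, fewer cells that express a gene and less RNA per cell cannot be told apart.

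SLC16A1, on chromosome 1 from 112911847 to 112957013 (minus strand, GRCh38, GENCODE 29), was the most abundant of the transport genes, with a mean of 324 CPM, above 96.5% of the tested genes. In HIF1A-null cells it had 279.6, 420.8 and 307.1 CPM in coculture, 278.3, 381.7 and 294.8 CPM in monoculture, and 270.3, 218.8 and 236.1 CPM in 2D. In e.v. cells it had 386.0, 380.3 and 490.1 CPM in coculture, 420.8, 334.5 and 389.9 CPM in monoculture, and 265.7, 229.6 and 268.6 CPM in 2D. In WT cells it had 370.5, 315.7 and 259.2 CPM in coculture, 312.5, 277.6 and 287.1 CPM in monoculture, and 232.6, 226.8, 343.7 and 228.5 CPM in 2D. Monoculture lay above 2D without overlap in HIF1A-null and e.v. cells, a gap in either direction that 38.3% and 37.5% of all tested genes shared, and so did coculture (40.9% and 49.3%), while in WT cells 1 of the 4 dishes exceeded every monoculture. An antisense gene, SLC16A1-AS1, overlaps SLC16A1 and held 1065 counts in all libraries together. How the counting treated strand is not stated, so reads of this pair cannot be told apart.

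BSG, on chromosome 19 from 571277 to 583493 (plus strand), encodes the chaperone of MCT1 and averaged 55.4 CPM. In e.v. cells it had 57.7, 70.5 and 68.8 CPM in coculture, 54.3, 61.6 and 51.0 CPM in monoculture, and 43.3, 38.2 and 54.6 CPM in 2D. The HIF1A-null libraries ranged from 39.4 to 62.7 CPM and the WT libraries of the replicated groups from 40.7 to 72.6 CPM. Coculture overlapped monoculture and monoculture overlapped 2D in each line, while the e.v. coculture libraries lay above the e.v. dishes without overlap, as 49.3% of all genes did in 1 direction or the other. A gene overlapping BSG on the other strand, AC009005.1, held 418 counts in all. ABCG2, on chromosome 4 from 88090264 to 88231322 (minus strand), encodes an efflux pump of the apical membrane that exports many small compounds, and averaged 20.9 CPM. In 2D it had 27.1, 21.5 and 20.4 CPM in HIF1A-null cells, 16.5, 16.0 and 17.0 CPM in e.v. cells, and 24.8, 15.2, 15.6 and 12.3 CPM in WT cells. Every HIF1A-null dish was above every e.v. dish, a separation that 21.5% of all genes shared, and 2 of the 3 lay within the range of the WT dishes.

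The sodium-coupled transporter and the receptors of the cell surface were at or near 0 in all cultures. SLC5A8 and FFAR3 had 0 counts in each of the 32 libraries, which allows a level of up to 0.0186 CPM over all libraries (3 counts) and up to 0.391 to 0.799 CPM in a single library. GPR42, a close paralog of FFAR3, also had 0 counts. How the counting treated reads shared by such copies is not stated, so the limit for FFAR3 does not cover reads it may have dropped. FFAR2 had 19 counts in 14 libraries, with at most 3 in a library. By line, FFAR2 was at 0.186 CPM (exact Poisson 95% interval 0.0851 to 0.353) in HIF1A-null cells, 0.115 CPM (0.0372 to 0.268) in e.v. cells and 0.0717 CPM (0.0233 to 0.167) in WT cells, intervals that overlap. HCAR2 had 8 counts in 7 libraries, and its near-identical neighbour HCAR3 had 11 counts in 10 libraries, so a difference between cultures was not detectable at this depth for any of the receptors. No molecular identifiers are described for these reads, so such limits and intervals cover counting error only.

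**Figure D1:**
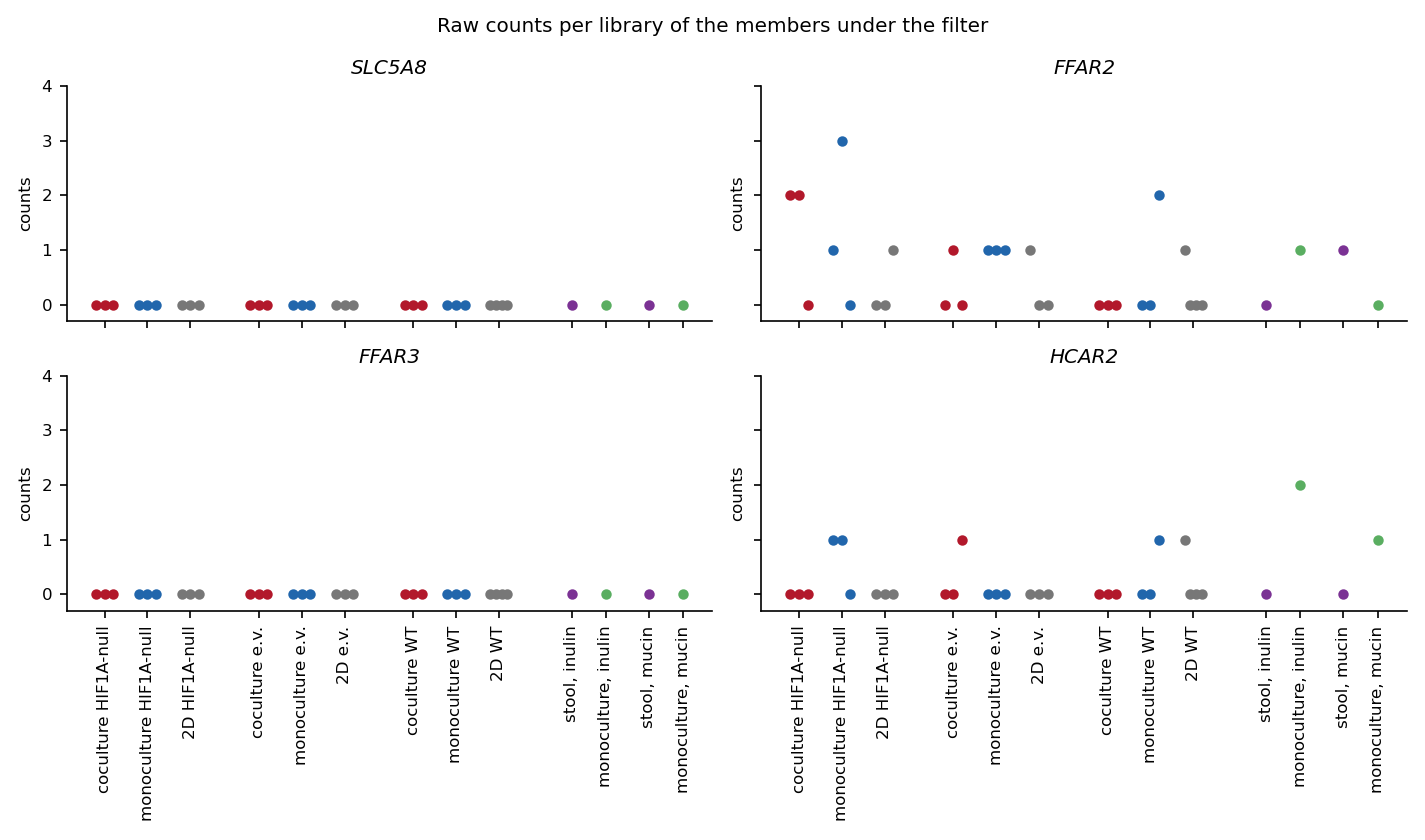
Raw counts (vertical axes) of SLC5A8, FFAR2, FFAR3 and HCAR2 in each of the 32 libraries, ordered by line and culture. SLC5A8 and FFAR3 stay at 0 in every library, FFAR2 reaches 3 counts and HCAR2 reaches 2.

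HDAC1, HDAC2 and HDAC3 are class I deacetylases. HDAC1 and HDAC2 share the Sin3, NuRD and CoREST complexes, and HDAC3 is the deacetylase of the NCoR and SMRT complexes. HDAC2 was the most abundant of the 10 genes, with a mean of 373 CPM (above 97.1% of tested genes), followed by SLC16A1, whose range over libraries it overlapped. HDAC1 averaged 112 CPM and HDAC3 89.8 CPM. RefSeq promoters (GRCh38.p14, 250 bases before to 50 after the start) of these deacetylases are printed because HDAC1 passed the test between HoxBan and 2D described below and its close relative HDAC2 did not. Capitals mark the GC box (GGGCGG) and the cores of hypoxia response elements (ACGTG as well as GCGTG), each searched on both strands with overlapping matches counted, so that their reverse complements are also in capitals. The windows are chr1:32291833-32292132 (plus strand) for HDAC1, chr6:113971099-113971398 (minus strand) for HDAC2 and chr5:141636800-141637099 (minus strand) for HDAC3. The HDAC2 window lies inside the GENCODE span of the gene (113933028 to 114011308), not at the outermost start of that span.
HDAC1: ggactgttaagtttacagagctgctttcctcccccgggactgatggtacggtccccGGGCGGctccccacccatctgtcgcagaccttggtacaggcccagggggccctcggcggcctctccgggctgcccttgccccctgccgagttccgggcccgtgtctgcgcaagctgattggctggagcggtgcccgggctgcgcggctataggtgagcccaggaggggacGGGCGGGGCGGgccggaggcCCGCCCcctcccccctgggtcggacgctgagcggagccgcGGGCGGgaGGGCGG
HDAC2: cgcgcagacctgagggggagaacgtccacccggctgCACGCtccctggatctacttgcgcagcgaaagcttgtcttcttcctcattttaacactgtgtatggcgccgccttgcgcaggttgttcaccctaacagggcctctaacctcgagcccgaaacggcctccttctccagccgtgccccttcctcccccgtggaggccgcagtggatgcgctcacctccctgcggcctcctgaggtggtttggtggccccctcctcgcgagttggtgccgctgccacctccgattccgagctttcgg
HDAC3: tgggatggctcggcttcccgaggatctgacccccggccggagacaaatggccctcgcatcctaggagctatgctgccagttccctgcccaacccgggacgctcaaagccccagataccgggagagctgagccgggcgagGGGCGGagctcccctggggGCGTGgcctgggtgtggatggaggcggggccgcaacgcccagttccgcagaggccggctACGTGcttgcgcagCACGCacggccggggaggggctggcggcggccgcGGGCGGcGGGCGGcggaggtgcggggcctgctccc

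The HDAC1 window held 6 GC boxes, 1 pair of which share a base, and neither hypoxia core. The HDAC2 window held 1 GCGTG and no GC box, and the HDAC3 window held 3 GC boxes, 1 ACGTG and 2 GCGTG. Of the 35116 promoters in the table, 45.0% hold a GC box, 21.4% an ACGTG and 36.5% a GCGTG. These are matches of letters and were not tested as binding sites.

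HDAC1, on chromosome 1 from 32292086 to 32333635 (plus strand), had lower means in HoxBan than in 2D in each line. In HIF1A-null cells it had 78.6, 104.0 and 110.9 CPM in coculture, 86.3, 118.0 and 77.1 CPM in monoculture, and 117.1, 126.6 and 145.7 CPM in 2D. In e.v. cells it had 62.3, 91.3 and 103.7 CPM in coculture, 121.8, 88.3 and 62.5 CPM in monoculture, and 151.9, 138.8 and 146.3 CPM in 2D. In WT cells it had 111.0, 107.8 and 95.7 CPM in coculture, 130.6, 116.6 and 112.0 CPM in monoculture, and 131.7, 138.9, 134.6 and 154.9 CPM in 2D. Every coculture library of each line was below every 2D library of that line, as 40.9% of all genes were apart in HIF1A-null, 49.3% in e.v. and 31.3% in WT cells. Monoculture was below 2D without overlap in e.v. cells (37.5% of all genes apart) and narrowly in WT cells (26%). The highest WT monoculture was at 130.6 CPM and the lowest WT dish at 131.7 CPM. In HIF1A-null cells 1 monoculture, at 118.0 CPM, was above the lowest dish.

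HDAC2, on chromosome 6 from 113933028 to 114011308 (minus strand), had 328.6, 496.6 and 376.9 CPM in coculture, 304.0, 426.1 and 302.7 CPM in monoculture, and 299.5, 314.5 and 367.5 CPM in 2D in HIF1A-null cells. In e.v. cells it ranged from 314.0 to 534.4 CPM in coculture, 336.4 to 451.7 CPM in monoculture and 345.3 to 392.5 CPM in 2D, and in WT cells from 367.8 to 484.6, 331.1 to 430.6 and 297.7 to 366.2 CPM in the same order of cultures. HDAC3, on chromosome 5 from 141620876 to 141636870 (minus strand), had 73.8, 93.4 and 89.0 CPM in coculture, 81.5, 87.2 and 84.0 CPM in monoculture, and 56.0, 63.8 and 82.7 CPM in 2D in HIF1A-null cells. In the replicated groups of e.v. and WT cells HDAC3 ranged from 62.8 to 117.3 CPM. The monoculture and 2D ranges overlapped in each line for HDAC2 and for HDAC3. HDAC2 in WT coculture was narrowly above the WT dishes without overlap (lowest coculture 367.8 CPM, highest dish 366.2 CPM). Of all genes, 31.3% were apart in this comparison. Processed pseudogenes of HDAC1 (HDAC1P1 and HDAC1P2) and of SLC16A1 (SLC16A1P1) had 0 counts, and the antisense genes over HDAC2 and HDAC3 held 70 and 16 counts in all.

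Coculture with the butyrate producer was compared with monoculture to ask whether any gene of the route answered to the bacterium. None of the 6 tested genes was called in HIF1A-null, e.v. or WT cells (edgeR's quasi-likelihood test, two-sided, Benjamini-Hochberg adjusted p under 0.05 over 12849 genes). The same test called 0% of all genes in each of these lines, although 908, 791 and 555 genes had p under 0.05 before adjustment, none of the 6 among them. DESeq2 also called 0 of the 6, and 4, 0 and 0 of all genes in these lines. Over the mean of the 3 lines 1.99% of all genes were called (0.817% higher and 1.18% lower), and again 0 of the 6.

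BSG had the largest of these mean changes, with a log2 fold change of 0.21 (SE 0.10, 95% interval -0.00387 to 0.42, adjusted p = 0.281, edgeR), followed by HDAC2 at 0.18 (adjusted p = 0.394, edgeR), SLC16A1 at 0.13 and ABCG2 at 0.12. HDAC3 was at 0.02 and HDAC1 at -0.05. The 95% intervals of the 6 mean changes lay between -0.29 and 0.43 on the log2 scale, so changes of more than 1.35-fold in the mean of the lines were outside every interval. Within 1 line the intervals were wider and reached -0.59 and 0.80. HDAC1 in WT cells was the 1 tested gene of the route whose coculture and monoculture libraries did not overlap in a line, a state found in 7.03% of all genes in WT, 7.75% in e.v. and 11.3% in HIF1A-null cells. The gap was narrow (highest coculture 111.0 CPM, lowest monoculture 112.0 CPM). No difference of the coculture effect between HIF1A-null and e.v. cells or between e.v. and WT cells was called (0 of 12849 genes by edgeR and by DESeq2, with 169 and 115 under 0.05 before adjustment). For the 6 genes, the differences of these effects had 95% intervals that reached from -0.80 to 1.01 on the log2 scale.

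**Figure D2:**
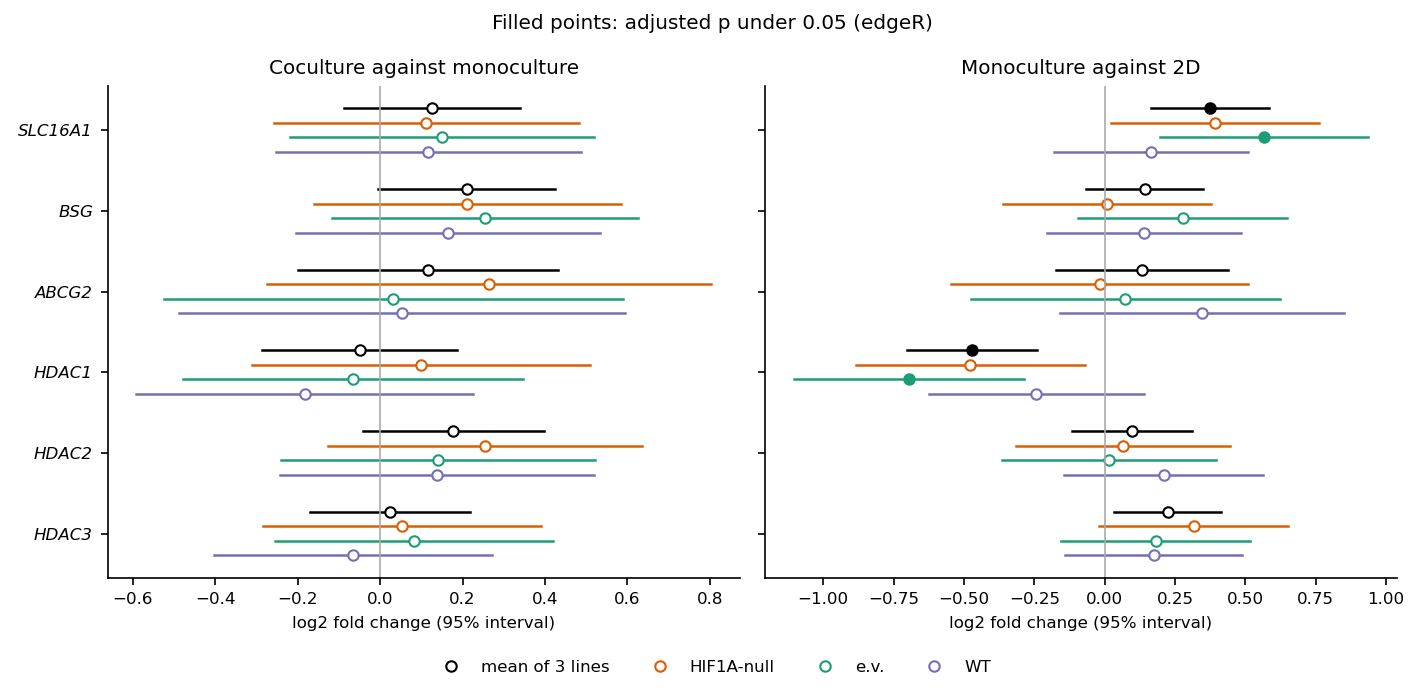
Log2 fold changes with 95% intervals (horizontal axes) of the 6 tested genes in coculture against monoculture (left) and in monoculture against 2D (right), for the mean of the 3 lines and for each line; filled points passed an adjusted p of 0.05. No point is filled on the left, and on the right those of SLC16A1 and HDAC1 are filled for the mean and for e.v. cells.

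Monoculture was compared with 2D to set HoxBan culture without bacteria against the dish. In HoxBan the cells lay upside down on agar made with yeast extract, casitone, fatty acids and glucose. Agar, position and tube all differed from the dish together, so their parts cannot be told apart here. Over the mean of the 3 lines SLC16A1 rose and HDAC1 fell, 2 of the 6 tested genes, beside 44.6% of all genes (21.4% higher and 23.3% lower). SLC16A1 changed by 0.37 on the log2 scale (SE 0.10, 1.30-fold, adjusted p = 0.00387, edgeR), and HDAC1 by -0.47 (SE 0.11, 0.721-fold, adjusted p = 0.00121, edgeR). HDAC3 was at 0.22 (SE 0.09) and just missed the threshold (adjusted p = 0.0506, edgeR), with adjusted p = 0.024 by DESeq2, and it passed when any 1 of 8 libraries was left out (libraries 5, 11, 14, 16, 17, 22, 27 and 31 by the numbers of their labels). HDAC2 at 0.10, BSG at 0.14 and ABCG2 at 0.13 did not pass.

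By line, e.v. cells had the largest changes of both genes. In e.v. cells 21.6% of all genes were called, among them HDAC1 at -0.70 (SE 0.20, adjusted p = 0.0128, edgeR) and SLC16A1 at 0.57 (SE 0.18, adjusted p = 0.0246, edgeR). The HDAC1 call was lost without library 25, the monoculture with 62.5 CPM (adjusted p = 0.0918, edgeR), and that of SLC16A1 without library 11, 23, 25 or 26 (adjusted p up to 0.110, edgeR). In HIF1A-null cells, where 20.1% of all genes were called, HDAC1 was at -0.48 (SE 0.20, adjusted p = 0.0904, edgeR; 0.0335 without library 7) and SLC16A1 at 0.39 (adjusted p = 0.130, edgeR). In WT cells, where 14.8% were called, they were at -0.24 (adjusted p = 0.419, edgeR) and 0.16 (adjusted p = 0.564, edgeR). None of the 6 was called in HIF1A-null or WT cells, although 2 of them in HIF1A-null and 0 in WT cells had p under 0.05 before adjustment, and DESeq2 called 0 in both lines. The lines were not shown to differ: the effect in e.v. minus that in WT cells was -0.45 (SE 0.27) for HDAC1 and 0.40 for SLC16A1, and neither this difference nor that of HIF1A-null minus e.v. cells was called for any gene by edgeR (439 and 180 genes under 0.05 before adjustment, and 3 and 0 calls by DESeq2).

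The HoxBan libraries of highest mitochondrial share stood at the low end for some of these genes. Among the 6 HoxBan groups, the library with the highest share had the lowest HDAC2 in 6, the lowest HDAC1 in 5, the lowest BSG in 4 and the lowest SLC16A1 in 3, and it was the highest in none for these 4 genes. HDAC3 was lowest in that library in 3 groups and highest in 2, and ABCG2 lowest in 2 and highest in 1. Among dishes, the library of highest share had the highest SLC16A1 in HIF1A-null (270.3 CPM) and WT cells (343.7 CPM). In e.v. dishes it had the lowest (229.6 CPM). HDAC3 was lowest in that library in the dishes of each line (56.0 CPM in HIF1A-null, 78.3 CPM in e.v. and 62.8 CPM in WT cells). HDAC1 and HDAC2 were lowest there in HIF1A-null and e.v. dishes, and neither lowest nor highest in WT dishes. BSG was lowest there in e.v. dishes only, and ABCG2 was lowest in e.v. and highest in HIF1A-null dishes. How often such patterns held over all genes was not counted. With the mitochondrial share as a covariate, the mean monoculture change of HDAC1 was -0.34 (adjusted p = 0.00573, edgeR) and that of SLC16A1 was 0.40 (adjusted p = 0.00296, edgeR). HDAC2 (0.24, adjusted p = 0.0301, edgeR) and HDAC3 (0.32, adjusted p = 0.00778, edgeR) also passed in that fit, and in coculture against monoculture 0 of the 6 did.

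The ratio of HDAC1 to HDAC2 counts within a library needs no scaling between libraries, and it was chosen after the values of both genes were seen. In HIF1A-null cells it ranged from 0.209 to 0.294 (median 0.266) over the 6 HoxBan libraries, against 0.391 to 0.403 (median 0.396) in the 3 dishes. In e.v. cells it ranged from 0.186 to 0.270 (median 0.214) in HoxBan and from 0.384 to 0.402 (median 0.387) in 2D, and in WT cells from 0.229 to 0.352 (median 0.272) in HoxBan and from 0.406 to 0.442 (median 0.427) in 2D. No HoxBan library of any line reached the lowest dish. Because the pair was picked on these libraries, the ratio is a description and no p is given. How many other pairs of genes part in this way was not computed. The ratio of HDAC3 to HDAC2 overlapped between HoxBan and 2D in each line. The dish of highest mitochondrial share in each line had an HDAC1 to HDAC2 ratio of 0.391 at 15.3% (HIF1A-null), 0.402 at 17.1% (e.v.) and 0.431 at 14.1% (WT), and the part of this share in the HoxBan values was not tested. In WT cells the ratio was also lower in coculture (0.229, 0.261 and 0.260) than in monoculture (0.303, 0.352 and 0.284), without overlap, a comparison of 3 with 3 that was not tested. HDAC1 alone was already apart between these WT groups, as 7.03% of all genes were, so the ratio is not a separate observation. In the other lines coculture and monoculture overlapped.

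HIF1A-null cells were compared with e.v. cells to ask whether the genes of the route depend on HIF1A. None of the 6 was called in HoxBan, where 5.56% of all genes were, or in 2D, where 1% were (edgeR; before adjustment 2 and 1 of the 6 were under 0.05; DESeq2 called 0 of the 6). ABCG2 had the largest difference, 0.49 on the log2 scale in HoxBan (SE 0.19, 1.41-fold, adjusted p = 0.142, edgeR) and 0.47 in 2D (adjusted p = 0.675, edgeR). It had 28.0, 36.1 and 16.2 CPM in HIF1A-null coculture, against 19.1, 13.8 and 20.5 CPM in e.v. coculture, and 15.1, 29.6 and 24.0 CPM in HIF1A-null monoculture, against 20.2, 16.7 and 15.8 CPM in e.v. monoculture. These ranges overlap, and the call turned on 1 library, since ABCG2 passed without library 30, the HIF1A-null coculture with 16.2 CPM (0.62, adjusted p = 0.0438, edgeR). SLC16A1 was at -0.28 in HoxBan (adjusted p = 0.236, edgeR), BSG at -0.25, HDAC3 at -0.22, HDAC1 at 0.13 and HDAC2 at -0.09.

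The e.v. line itself differed from WT cells in HoxBan, where 11% of all genes were called. SLC16A1 was the 1 gene of the 6 among them, at 0.40 on the log2 scale (SE 0.13, 1.32-fold, adjusted p = 0.0434, edgeR). This call was not stable: it was lost when any 1 of 12 libraries was left out (libraries 11, 16, 18, 19, 20, 22, 23, 25, 28, 29, 31 and 32, with adjusted p up to 0.116, edgeR), with no filter (0.0537) and with only the groups compared (0.0815). HDAC1 was at -0.34 (SE 0.14, adjusted p = 0.117, edgeR) and passed without library 11 (0.0189). HIF1A-null against WT cells gave 0 calls among the 6 in HoxBan, beside 11.4% of all genes, and in 2D, beside 1.46%, and e.v. against WT dishes gave 0 beside 1.28% (edgeR, with none of the 6 under 0.05 before adjustment and none called by DESeq2). The comparisons of e.v. cells with HIF1A-null and with WT cells share the e.v. libraries.

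The single WT libraries allow no test. With inulin, SLC16A1 had 441.5 CPM (exact Poisson 95% interval 424.2 to 459.3) in stool coculture and 414.8 CPM (397.5 to 432.7) in monoculture, and with mucin 428.1 and 372.0 CPM. All 4 values were above the WT coculture and monoculture libraries without inulin or mucin, which ended at 370.5 CPM. The Poisson interval of the mucin monoculture, 354.2 to 390.3 CPM, includes that maximum. HDAC3 was above the same WT libraries, which ended at 104.1 CPM, in both inulin libraries (107.2 CPM with stool, 123.4 CPM in monoculture). With mucin it was barely above them in monoculture (104.2 CPM) and inside their range with stool (99.7 CPM). BSG, ABCG2, HDAC1 and HDAC2 lay inside that range in every single library. How many of all genes were placed in this way was not computed. HDAC1 had 97.8 CPM in stool coculture and 105.2 CPM in monoculture with inulin, and 103.2 and 109.1 CPM with mucin. Over the 6 genes the ratio of stool coculture to monoculture in the same medium lay between 0.868 (HDAC3, inulin) and 1.15 (SLC16A1, mucin). None of the 6 reached 2-fold, beside 1.18% of 9918 genes with inulin and 2.25% with mucin, and none reached 1.5-fold, beside 7.61% and 10.8%.

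The list of other monocarboxylate transporters held 11 genes, among them SLC26A3 and EMB, which are outside the SLC16 and SLC5 families. Of the 11, 6 were tested, SLC26A3 included. In monoculture against 2D 0 rose and 2 fell in the mean of the lines, beside 21.4% of all genes higher and 23.3% lower: SLC16A10, an aromatic amino acid transporter, at -0.39 (adjusted p = 0.00471, edgeR) and SLC16A5 at -0.45 (adjusted p = 0.0388, edgeR). The SLC16A5 call was lost when any 1 of 11 libraries was left out (libraries 2, 5, 7, 12, 15, 16, 23, 25, 29, 31 and 32, adjusted p up to 0.0871, edgeR). SLC16A3, the lactate exporter MCT4, was at 0.53 (adjusted p = 0.0526, edgeR). The median of the list was -0.26, beside -0.01 over all genes. The lactate receptor HCAR1 fell by 0.80 (adjusted p = 0.00589, edgeR), with a mean of 3.55 CPM, and FFAR4, a receptor of long-chain fatty acids, was at 0.01; these were the 2 tested of 7 listed receptors. The HCAR1 call was lost without the 6 HoxBan libraries of highest mitochondrial share. In coculture against monoculture 0 genes of either list were called, beside 1.99% of all genes.

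Enzymes listed for butyrate activation and mitochondrial oxidation included acetyl-CoA synthetases and ketone body enzymes, so the list is not particular to butyrate. In monoculture against 2D they gave 1 higher and 4 lower of 15 tested (20 listed), with a median of -0.03. Thus 5 of 15 were called, beside 44.6% of all genes. ACSS2, the cytosolic acetyl-CoA synthetase, rose by 0.33 (adjusted p = 0.00732, edgeR), a call lost without the 6 HoxBan libraries of highest mitochondrial share. ACSS1, its mitochondrial counterpart, fell by 0.70 (adjusted p = 0.000882, edgeR), and BDH1, a ketone body dehydrogenase, by 0.46 (adjusted p = 0.00138, edgeR). ETFB, which takes electrons from fatty acid oxidation, fell by 0.31 (adjusted p = 0.00765, edgeR). In coculture against monoculture 0 were called, with ETFB, ACAT1 and ECHS1 each at 0.33 and adjusted p values of 0.0641, 0.0695 and 0.080 (edgeR); 3 genes of this list passed by DESeq2 and 3 with the mitochondrial covariate. In HIF1A-null against e.v. HoxBan, OXCT1, which activates ketone bodies, was higher by 1.12 (adjusted p = 0.00896, edgeR) and ACAA2, a thiolase of fatty acid oxidation, was at -0.44 (adjusted p = 0.0324, edgeR), beside 5.56% of all genes. The ACAA2 call was lost in the fit of the 12 HoxBan libraries of both lines (adjusted p = 0.103, edgeR) and without library 7, 14, 15, 17, 21, 24 or 25 (adjusted p up to 0.105, edgeR). Both genes also differed between e.v. and WT cells in HoxBan, in the opposite direction, with OXCT1 at -1.26 (adjusted p = 0.00247, edgeR) and ACAA2 at 0.72 (adjusted p = 0.000453, edgeR), beside 11% of all genes. OXCT1 in coculture averaged 7.80 ± 1.07 CPM in HIF1A-null, 3.74 ± 0.69 CPM in e.v. and 7.36 ± 1.26 CPM in WT cells (SD, n = 3 each), so the e.v. line stood apart from the other 2.

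Among the other zinc-dependent deacetylases, 1 of 7 tested (8 listed) fell in monoculture against 2D and 0 rose, beside 23.3% and 21.4% of all genes. HDAC4, a class IIa enzyme, was at -1.66 (SE 0.22, adjusted p = 8.1e-07, edgeR). It averaged 1.56 ± 0.16 CPM in monoculture and 2.88 ± 0.54 CPM in 2D in HIF1A-null cells, 0.602 ± 0.17 CPM and 2.91 ± 0.37 CPM in e.v. cells, and 0.671 ± 0.18 CPM and 2.49 ± 0.32 CPM in WT cells (SD, n = 3, and n = 4 for WT in 2D). These are levels of few counts. The other 6 (HDAC5, HDAC6, HDAC7, HDAC8, HDAC10 and HDAC11) lay between -0.27 and 0.31 and did not pass. The histone acetyltransferases, which oppose the deacetylases, gave 4 lower and 0 higher of 10 tested, beside 23.3% of all genes lower and 21.4% higher, with a median of -0.39 beside -0.01 over all genes. EP300 was at -1.10 (adjusted p = 2.56e-06, edgeR), KAT6B at -0.98 (adjusted p = 1.49e-06, edgeR), CREBBP at -0.67 (adjusted p = 0.00149, edgeR) and KAT6A at -0.65 (adjusted p = 0.000422, edgeR).

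Partners of HDAC1, HDAC2 and HDAC3 in their complexes gave 5 higher and 11 lower of 31 tested (32 listed), with a median of -0.15. GATAD2B of the NuRD complex was at -0.92 (adjusted p = 4.98e-08, edgeR), TBL1X of the NCoR complex at -0.85 (adjusted p = 5.6e-08, edgeR) and CHD4, the NuRD remodeller, at -0.49 (adjusted p = 1.75e-05, edgeR). GPS2, another NCoR subunit, rose by 1.65 (adjusted p = 6.59e-07, edgeR), and SAP18 of the Sin3 complex by 0.57 (adjusted p = 4.13e-06, edgeR). The 16 of 31 that passed stand beside 44.6% of all genes. In coculture against monoculture 2 rose and 0 fell, beside 0.817% of all genes higher and 1.18% lower: CHD4 at 0.35 (adjusted p = 0.0261, edgeR) and KDM1A, the histone demethylase of CoREST, at 0.46 (adjusted p = 0.0327, edgeR). Both calls were lost when only the coculture and monoculture libraries were fitted (adjusted p = 0.127 for CHD4 and 0.119 for KDM1A, edgeR). Leaving out library 4, 15, 18, 19, 20, 21, 22 or 24 also ended both calls, and library 3 or 16 that of KDM1A (adjusted p up to 0.0809 for CHD4 and 0.093 for KDM1A, edgeR). Like CHD4, KDM1A was lower in monoculture than in 2D, at -0.32 (adjusted p = 0.019, edgeR, and up to 0.194 over the alternatives). In HIF1A-null against e.v. HoxBan, RCOR2, a CoREST scaffold, was at 1.07 (adjusted p = 0.0381, edgeR), a call that DESeq2 did not make (adjusted p = 0.0556) and that was lost without library 4, 11, 15, 17, 18, 21, 22 or 24 (adjusted p up to 0.140, edgeR). In 2D RCOR2 was at 1.93 in the same lines (adjusted p = 0.00853, edgeR, beside 1% of all genes), with 4.01 ± 0.36 CPM in HIF1A-null and 1.04 ± 0.36 CPM in e.v. dishes (SD, n = 3 each), levels of few counts.

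**Figure D3:**
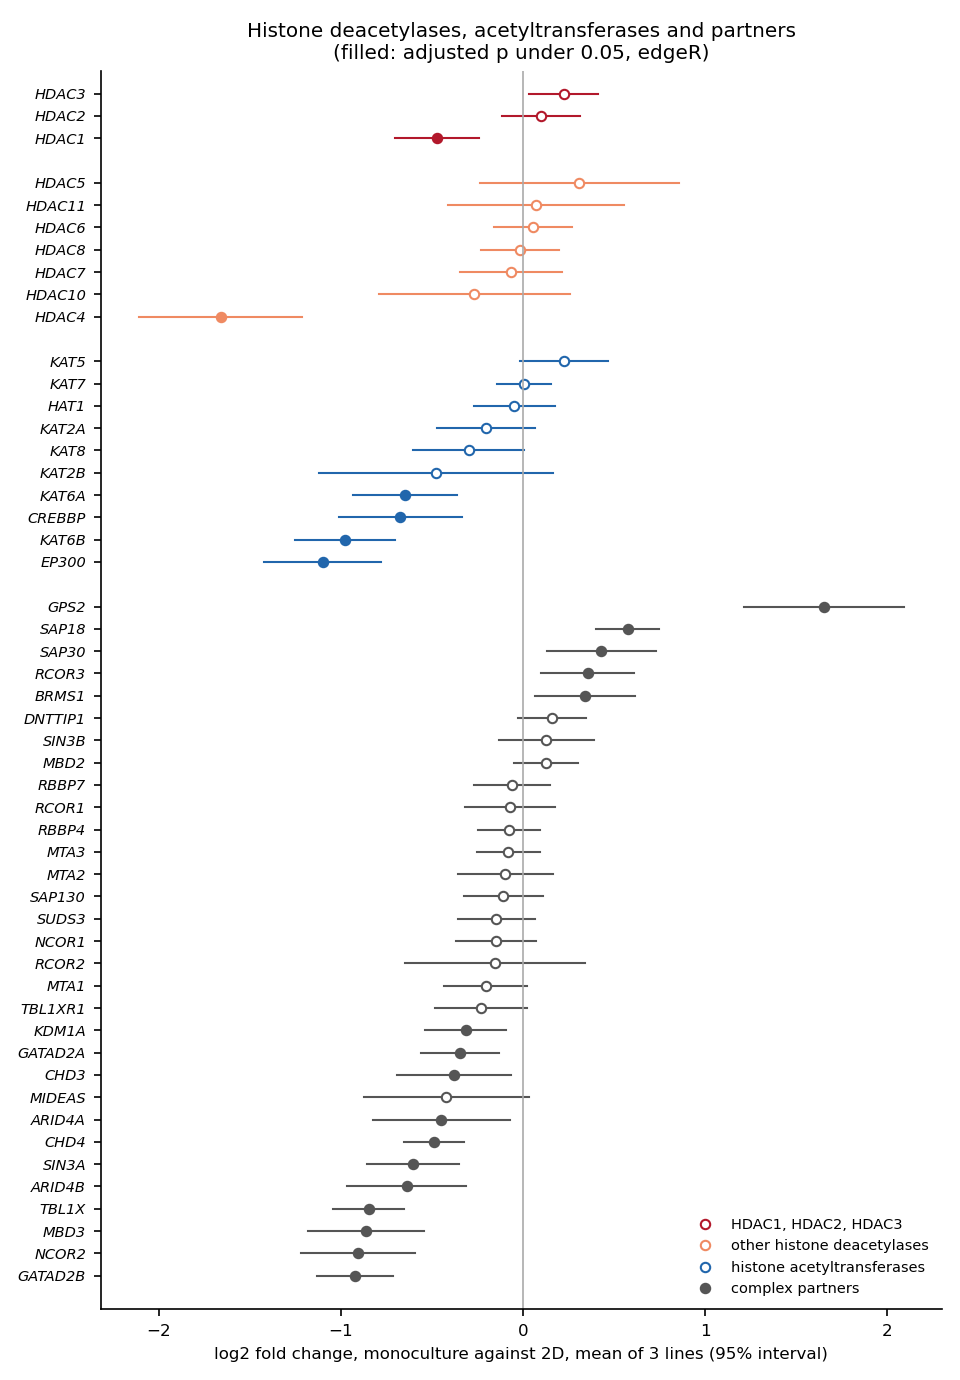
Log2 fold changes with 95% intervals (horizontal axis) in monoculture against 2D, mean of the 3 lines, for HDAC1, HDAC2 and HDAC3, the other tested zinc-dependent deacetylases, the histone acetyltransferases and the tested partners of the HDAC complexes; filled points passed an adjusted p of 0.05. HDAC1 at -0.47 and HDAC4 at -1.66 are the filled deacetylases, and the 4 filled acetyltransferases all lie left of 0.

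Genes known to rise with butyrate or with deacetylase inhibitors in colon cells gave no calls with the bacterium: 0 of 10 tested (12 listed) were called in coculture against monoculture, with a median of -0.01, and 0 of 3 genes known to fall (CCND1 at -0.13, MYC at -0.59, adjusted p = 0.214, edgeR, and CLDN2 at -0.17). The alkaline phosphatase gene ALPI was at -0.16, the villin gene VIL1 at 0.07, TGFB1 at 0.44 (adjusted p = 0.124, edgeR) and SYNPO at -0.62 (adjusted p = 0.101, edgeR). In monoculture against 2D 4 rose and 1 fell of the 10, beside 21.4% and 23.3% of all genes, with a median of 0.41. The tight junction gene CLDN1 rose by 0.79 (adjusted p = 1.67e-05, edgeR) and the cytokine gene IL18 by 0.74 (adjusted p = 0.00144, edgeR), whereas SYNPO was at -0.50 (adjusted p = 0.0308, edgeR). The SYNPO call was lost without library 2, 7, 11, 16, 19, 27 or 32 (adjusted p up to 0.0989, edgeR). IL10RA, a subunit of the interleukin 10 receptor, was also called, at 0.204 to 4.25 CPM in monoculture and 0 to 0.362 CPM in 2D, levels of a few counts for which no fold is given. In HIF1A-null against e.v. HoxBan, IL18 was at -1.08 (adjusted p = 0.00225, edgeR) and CLDN2 at -1.60 (adjusted p = 0.0301, edgeR). The CLDN2 call was lost without library 4, 11, 17, 22, 24 or 30 (adjusted p up to 0.118, edgeR). IL18 was also higher in e.v. than in WT HoxBan, by 1.40 (adjusted p = 0.000166, edgeR), and in coculture it averaged 12.73 ± 3.21 CPM in HIF1A-null, 31.94 ± 1.93 CPM in e.v. and 11.84 ± 4.84 CPM in WT cells (SD, n = 3 each), with HIF1A-null near WT and e.v. apart. CLDN2 in e.v. against WT HoxBan was at -1.04 (adjusted p = 0.0752, edgeR).

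Over the means of the 9 replicated groups, the genes most like each member in log2(CPM + 1) were found by Pearson's r among 9918 genes, as a description, since the points share their libraries and scaling. SLC16A1 was most like YPEL5 (r = 0.99), TERF2IP (0.98) and CLTB (0.98), and HDAC1 was most like ATP7B (0.99), ABR (0.98) and PLCB3 (0.98). SLC16A1 and HDAC1 ran opposite to each other (r = -0.93). HDAC3 was most like HIF1A (0.98), OXSR1 and CYSTM1, HDAC2 most like XRN1, ASCC3 and CFTR, BSG most like HSBP1, CCT8 and PSMB7, and ABCG2 most like KNG1, ZNF37BP and NRP2. SLC16A1 and its partner BSG had r = 0.72, and HDAC1 and HDAC2 had r = -0.48.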

How the data were processed

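RNA of 32 Caco-2 libraries was made into QuantSeq 3′ libraries and sequenced. The authors deposited raw counts per Ensembl gene, made on GRCh38; which aligner, counter, strand setting or annotation they used is "not given in the sources used here". Symbols came from a table of Ensembl identifiers (56104 rows) and GENCODE 29 (427 rows), and unnamed rows took 0.0679% of the counts. Samples were grouped by their titles.

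From these counts, CPM were computed with TMM factors over all 32 libraries. Genes passing edgeR's filterByExpr were tested by quasi-likelihood in edgeR, with the 28 libraries of the 9 replicated groups fitted together (12849 genes, 19 degrees of freedom left, coefficient of biological variation 0.201), two-sided, with Benjamini-Hochberg adjustment and a threshold of 0.05. Sharing 1 fit sets all groups on the same filter and spread. No 2 libraries of a group agreed within sampling noise (chi-square per degree of freedom of at least 3.77). On simulated counts for these 12849 genes, 85% of 2-fold and 97% of 4-fold changes were recovered in the mean coculture contrast, and 47% and 83% in that of WT cells.

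The members and gene lists were chosen with earlier results of these data known. Every member was named, and from each list up to 4 genes of smallest p in the mean coculture, mean monoculture and HIF1A-null against e.v. HoxBan comparisons, any list gene past the threshold in coculture, and the 3 genes most like each member; some genes of the lists are counted but not reported here by name. Alternatives were DESeq2, edgeR's exact test, upper-quartile factors, TMM without mitochondrially encoded genes, no filter, only the groups compared, 12 HoxBan libraries, a mitochondrial covariate, and leaving out each library. The HDAC1 to HDAC2 ratio and fits without libraries of high mitochondrial share were added after the data were seen. Versions were matplotlib 3.10.9, scipy 1.17.1, numpy 2.4.6, pandas 2.3.3 and Python 3.11.15, and in R 4.3.3, DESeq2 1.42.0, limma 3.58.1 and edgeR 4.0.16.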

Additional observations from a re-analysis of the deposited data

Results flagged for a closer look

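In WT dishes, 1 library of 4 (library 12) had 343.7 CPM of SLC16A1 and stood far above the other 3, which lay between 226.8 and 232.6 CPM. Its mitochondrial share was 14.1%, the highest of the 4. Without it the mean monoculture change of SLC16A1 in WT cells was 0.33 on the log2 scale (adjusted p = 0.204, edgeR), against 0.16 with it. In the same group FFAR2 and HCAR2 had their highest values in a library with 0.183 CPM of each, which is 1 count beside 0 in the other 3. FFAR2 also had a lone count in HIF1A-null dishes and in e.v. dishes. How often chance alone flags a group was not tested.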

How the results depend on the processing

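No paired analysis was possible because each library has its own number in the labels and none is shared between groups. The coculture counts of called members stayed at 0 under every alternative. With the mitochondrial covariate, 4 members were called in monoculture against 2D in the mean of the lines, where the main count was 2; with only the groups compared, 1 was called in e.v. cells, where the main count was 2 and HDAC1 was lost (adjusted p = 0.0565, edgeR). In e.v. against WT HoxBan, 0 were called with no filter and with only the groups compared, against 1. Leaving out 1 library gave 0 to 1 called members in that comparison, 0 to 2 in e.v. monoculture against 2D, 2 to 3 in the mean, 0 to 1 in HIF1A-null monoculture against 2D and 0 to 1 in HIF1A-null against e.v. HoxBan. The cause was not tested in these cases.

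Directions turned only for changes near 0. With the covariate, the mean coculture change of HDAC1 was 0.031 (main -0.05), and HDAC2 in e.v. against WT HoxBan was 0.028 (main -0.02). Leaving out 1 library gave -0.12 to 0.038 for HDAC1 and -0.018 to 0.060 for HDAC3 in mean coculture, -0.18 to 0.030 for HDAC2 in HIF1A-null against e.v. HoxBan, and -0.14 to 0.068 for HDAC2 and -0.023 to 0.076 for BSG in e.v. against WT HoxBan. The HDAC1 and SLC16A1 calls of the mean monoculture comparison held in all 28 such fits, with adjusted p of at most 0.00405 and 0.0121 (edgeR). Counts over all genes moved more: mean coculture had 256 calls, with 654 by DESeq2, 989 with the covariate, 482 with no filter and 19 with only the groups compared, and 1352 and 1056 without the 6 HoxBan or the 9 libraries of highest mitochondrial share. With only the groups compared, HoxBan calls were 380 for HIF1A-null against e.v. (main 714), 537 for e.v. against WT (1411) and 760 for HIF1A-null against WT (1459). Without the 6 HoxBan libraries they were 298, 490 and 501, and without the 9 libraries 266, 316 and 400, where monoculture against 2D had 1734 in e.v. (2775) and 1355 in HIF1A-null cells (2582). In 2D, HIF1A-null against e.v. had 129, with 51 to 388 over the alternatives, e.v. against WT 164, with 29 to 409, and HIF1A-null against WT 188, with 81 to 452. The exact test covers single pairs of groups, so means and interactions have none. Levels of low members are limited by depth, and the single libraries have no replicate.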

Other observations

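Of the other members, ABCG2, BSG, SLC5A8 and FFAR2 had RefSeq promoters of 300 bases in the table (GRCh38.p14). ABCG2 had 5 such windows for its alternative starts. Of these, 2 overlapping windows held 2 ACGTG, 2 GCGTG cores and 2 GC boxes each, 1 held 2 GCGTG alone, and 2 held none. One of the BSG windows held 2 ACGTG, 4 GCGTG and 3 GC boxes, and the other held none of these. The FFAR2 window held 2 ACGTG, and that of SLC5A8 held 1 GCGTG. These are matches of letters, beside 21.4% of all promoters in the table that hold an ACGTG, 36.5% that hold a GCGTG and 45.0% that hold a GC box. SLC16A1, FFAR3 and HCAR2 were not matched.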
